A study of Mus musculus with 2 samples.

Results

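Medial smooth muscle cells, the contractile cells that form the wall of the aorta between its inner lining and its outer sheath, were picked out of 2 droplet single-cell RNA libraries of the mouse aorta. The mice of one library were wild-type, and those of the other (MGP-KI) carry a knocked-in mutated matrix Gla protein, the product of Mgp. Mice of both groups were 1 month old, of both sexes and perfused, and in both groups the adventitia was dissected away, the tissue was digested with Liberase and dead cells were sorted out with DAPI. The sources used here do not name the mutated residue, the strain or the number of mice per library, and both libraries are numbered replicate 1. The study, by its title, asks how mutating MGP bears on differentiation regulated by bone morphogenetic proteins (BMPs) in the aortic media.

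Members were chosen by measured UMIs (unique molecular identifiers, 1 per captured RNA molecule). A mural cell had at least 30 UMIs of Acta2, Tagln and Myh11 per 10000 and more of these than of Dcn, Lum and Pdgfra. A medial cell was a mural cell with more UMIs of Npnt, Mylk4 and Sost together than of either of 2 other sets, one of Sncg, Timp4, Sparcl1 and Npy1r and the other of Mdga2, Chrm2, Chrm3, Adamtsl1 and Cacna2d3. This gave 282 of 3697 kept wild-type cells (7.63%, exact 95% binomial interval 6.79 to 8.53) and 2597 of 6419 kept knock-in cells (40.5%, 39.2 to 41.7), or 2879 of 10116 cells in all. Of the mural cells, 72.7% were medial in wild-type and 86.5% in MGP-KI aorta. The remaining mural cells, 106 and 405, served for comparison: 59 and 284 led by the Sncg set, 34 and 76 led by the set with the muscarinic receptor genes, and 13 and 45 with no leading set. Dissection and digestion can set shares of cells, and their part in this difference was not tested.

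The libraries stood apart in depth, mitochondrial share and sex. A wild-type medial cell had a median of 18497.5 UMIs and a knock-in one 12432, and the members held 5801256 and 35361308 UMIs in all. Their median mitochondrial share was 3.23% and 4.58%. By Xist and Y-linked UMIs, 37.9% of wild-type and 56.9% of knock-in medial cells were female, and 50% and 29.0% male. The share of medial cells was 9.05% of female and 6.74% of male kept cells in the wild-type library, and 50.6% and 35.3% in the knock-in library. Only 4 kept cell barcodes occurred in both libraries. With 1 library per genotype no difference between genotypes can be tested, and every interval covers counting error only.

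The values that chose the members are a description. Of the Npnt set a wild-type medial cell held a median of 30 UMIs and a knock-in one 28, against 1 and 2 of the Sncg set and 0 and 0 of the muscarinic set. Just inside the limit, 14 and 58 members led by 1 or 2 UMIs, and just outside, 31 and 93 mural cells tied or trailed by up to 2. The median contractile level (Acta2, Tagln and Myh11 per 10000 UMIs) was 99.7 and 237 just inside, 84.4 and 230 just outside, and 365 and 344 over all members. At the contractile limit, 8 and 5 members lay between 30 and 60 per 10000, and 4 and 3 cells that met the other conditions lay between 15 and 30.

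The aortic media is built of smooth muscle layers between sheets of elastic fibres. These cells contract through smooth muscle actin and myosin, and in a growing animal they also lay down elastin, collagen and the enzymes that cross-link both. MGP is secreted by them, binds BMPs and inhibits mineral growth in the wall.

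Smooth muscle markers were high in these cells. The list Tagln, Lmod1, Myocd, Myl9, Smtn, Itga8 and Mylk, in which Tagln belongs to the rule, summed to 18290 CPM (UMIs of the gene scaled to a fixed total of all UMIs of the same cells) in wild-type and 19860 in knock-in medial cells, against 352 and 513 in fibroblasts gated by Dcn, Lum and Pdgfra. Without Tagln the other 6 genes, which the rule did not use, summed to 7410 CPM and 8844 CPM, against 298 CPM and 406 CPM in fibroblasts. Myocd, the coactivator that switches on the smooth muscle programme, stood at 440 CPM and 519 CPM. Cnn1, the actin-binding protein calponin, stood at 1406 CPM and 1514 CPM. The 9 pericyte markers summed to 844 CPM and 795 CPM, against 1078 CPM and 1128 CPM in other mural cells. Rgs5 (355 CPM and 251 CPM), Cspg4 (225 CPM and 232 CPM), Abcc9 (113 CPM and 151 CPM), Pdgfrb (82.2 CPM and 97.3 CPM), Notch3, Kcnj8 and Cox4i2 were present, while the defining genes Higd1b and Vtn had 1 UMI each over both libraries.

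Signals of other cell types were low but not equal. Endothelial markers summed to 107 CPM in wild-type and 55.3 CPM in knock-in medial cells, against 8075 CPM and 8559 CPM in endothelial cells. Among them Emcn had 18 wild-type and 0 knock-in UMIs and Ptprb stood at 25.0 CPM and 3.73 CPM. Fibroblast markers summed to 1733 CPM and 1542 CPM, against 18610 CPM and 21850 CPM in fibroblasts. Macrophage markers summed to 66.5 CPM and 108 CPM, against 27360 CPM and 26350 CPM in macrophages. Lymphocyte, mesothelial, Schwann and erythrocyte markers each summed to less than 6 CPM, with 5 and 0, 2 and 3, 3 and 2, and 4 and 1 of their genes at 0. Cardiac and skeletal muscle markers, which include Actn2, summed to 36.9 CPM and 49.6 CPM and adipocyte markers to 140 CPM and 157 CPM, with 814 wild-type and 5521 knock-in UMIs from Fabp4 and the other 4 genes at 0 in wild-type cells. From macrophage genes, free RNA was estimated at 1.57% of the UMIs of wild-type and 4.57% of those of knock-in medial cells. Scrublet's top-scoring barcodes held 15 and 205 members, which were kept in the values that follow unless stated.

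**Figure D1:**
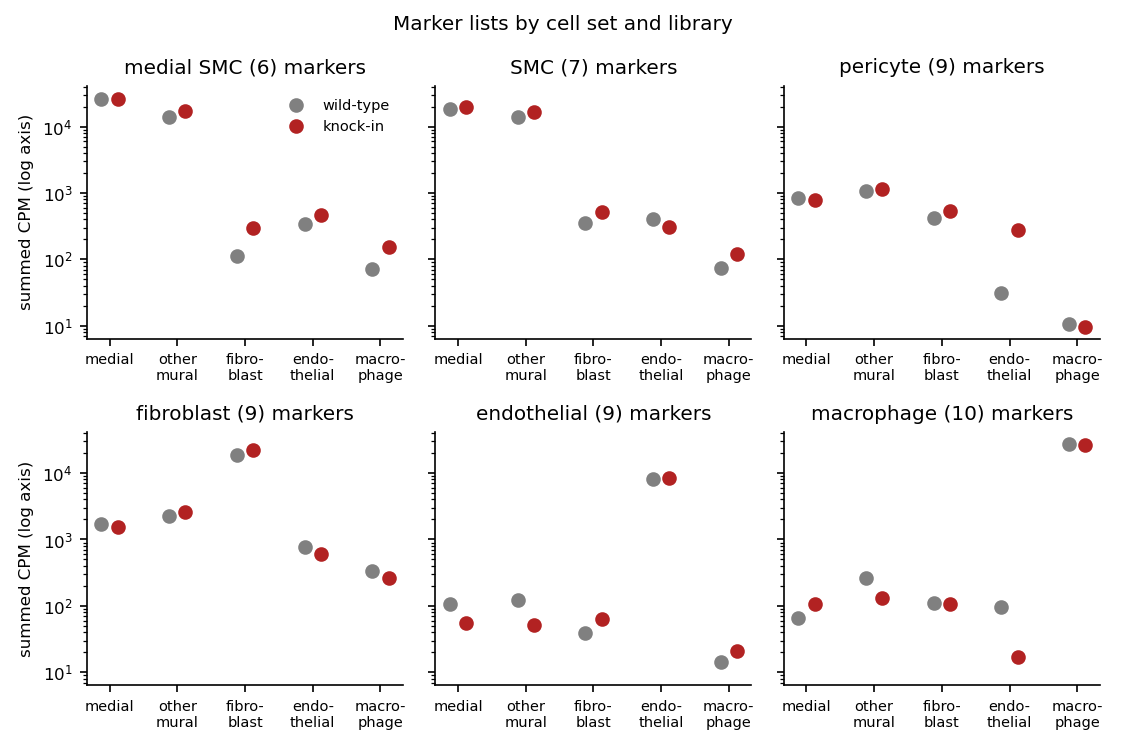
Summed level of 6 marker lists (CPM, log axis) in medial, other mural, fibroblast, endothelial and macrophage cells; grey points are the wild-type and red points the knock-in library. The smooth muscle panel puts medial cells at 18290 and 19860 CPM and fibroblasts at 352 and 513 CPM; Acta2, Cnn1, Myh11, Mylk4, Npnt and Sost form the medial list, and all of these except Cnn1 belong to the selection rule.

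Many contractile genes are known to be driven by serum response factor through CArG boxes, and the promoters of 3 of them are shown for where the box lies. The box is a run of A and T bases between CC and GG. This pattern matches alike on both strands, although the letters of a single box can differ between them. It was found in the 250 bases before the start of 4 of the 22 contractile genes that have a window (18.2%: Myl9, Myl6, Vcl and Ldb3), against 324 of 20267 genes of the count table (1.60%) and 143 of the 9818 genes measured in medial cells (1.46%). The sequences are RefSeq's for GRCm38.p6, printed 5′ to 3′ on the gene's strand with the box in capitals: Myl9, the regulatory light chain of smooth muscle myosin, at chr2:156775214-156775463 on the plus strand; Myl6, its essential light chain, at chr10:128493010-128493259 on the minus strand; and Vcl, the adhesion protein vinculin, at chr14:20929148-20929397 on the plus strand.
Myl9: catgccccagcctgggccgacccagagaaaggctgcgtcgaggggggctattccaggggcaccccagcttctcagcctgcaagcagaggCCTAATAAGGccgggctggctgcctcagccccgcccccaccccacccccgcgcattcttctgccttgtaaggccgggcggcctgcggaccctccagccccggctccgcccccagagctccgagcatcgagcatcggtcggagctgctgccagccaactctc
Myl6: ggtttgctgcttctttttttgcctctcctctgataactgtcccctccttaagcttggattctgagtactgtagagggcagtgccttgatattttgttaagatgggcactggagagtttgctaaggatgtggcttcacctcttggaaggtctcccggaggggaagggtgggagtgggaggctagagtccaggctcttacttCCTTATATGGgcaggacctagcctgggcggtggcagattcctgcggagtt
Vcl: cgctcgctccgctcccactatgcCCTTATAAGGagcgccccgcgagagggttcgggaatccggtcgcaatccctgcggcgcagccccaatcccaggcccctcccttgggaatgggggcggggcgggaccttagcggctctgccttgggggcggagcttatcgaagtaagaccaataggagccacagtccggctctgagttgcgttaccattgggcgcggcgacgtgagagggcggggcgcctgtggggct
The box lies 161 to 152 bases before the start in Myl9, 50 to 41 bases before it in Myl6 and 227 to 218 bases before it in Vcl. A match is a description of the letters and not of binding.

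Most contractile genes were less than 1.5-fold apart between the libraries. Of 22 measured genes outside the rule (measured means at least 50 UMIs over both libraries), 3 were at least 1.5-fold higher and 0 lower, where 8.09% of all 12662 measured genes were that much higher and 9.61% lower. Their median log2 ratio was 0.23, against -0.06 over all genes, and 0.07 in cells of 8000 to 20000 UMIs. The shares over all genes are the background for each 1.5-fold list count that follows. Myl9 stood at 3689 CPM and 4324 CPM in wild-type and MGP-KI medial cells, a log2 ratio of 0.23 (0.21 to 0.25), Myl6 at 0.28 and Vcl at 0.08. Smtn, the actin-associated protein smoothelin of contractile cells, stood at 273 CPM and 531 CPM, a log2 ratio of 0.96 (0.89 to 1.03), and was 0.91 in female and 0.91 in male cells. Flna, the actin cross-linker filamin A, stood at 1344 CPM and 2334 CPM (0.80, 0.76 to 0.83). Thinned to 5000 UMIs, a wild-type medial cell held a median of 7 Flna UMIs and a knock-in cell 11. Both genes were also higher in knock-in cells of the other mural set, at 1.15 and 1.00.

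The third gene was Tcap, a Z-disc protein of striated muscle known to follow the clock in heart. It stood at 26.9 CPM and 475 CPM, a log2 ratio of 4.14 (3.92 to 4.38). In cells thinned to 5000 UMIs, 8.63% of wild-type and 65.3% of knock-in medial cells held a Tcap UMI, against 0.232% and 2.18% of fibroblasts. Ratios were 3.47 in female, 4.68 in male and 3.65 in other mural cells.

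Medial cells differed from the other mural cells by genes beyond those that chose them. Of 9694 genes with at least 50 UMIs in each library, 67 (0.691%) were at least 2-fold higher in medial cells in both libraries and 241 (2.49%) were 2-fold lower. Since both sets come from the selection rule, these counts describe the split and have no test. Casq1, a calcium-storing protein of the sarcoplasmic reticulum, stood at 108 CPM in medial and 13.3 CPM in other mural cells of the wild-type library (log2 ratio 3.0), and at 91.7 CPM and 13.2 CPM in the knock-in library (2.79). Wnt16, a secreted Wnt ligand, stood at 72.1 CPM and 6.65 CPM in wild-type (3.39) and at 43.5 CPM and 7.48 CPM in MGP-KI cells (2.52). Wif1, which binds and inhibits Wnt ligands, stood at 49.5 CPM and 5.70 CPM (3.06) and at 85.5 CPM and 18.9 CPM (2.17). In each library these genes were several times higher in the medial than in the other mural cells.

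The remaining genes on the medial side have varied roles. Actn2, the Z-disc actinin of striated muscle, had ratios of 2.28 and 2.98 in the wild-type and MGP-KI libraries, and Klhl41, a sarcomere-associated kelch protein, 3.11 and 3.49 on 2 and 7 UMIs in the other mural cells. Dsp, the desmosome protein desmoplakin, stood at 147 CPM in wild-type and 168 CPM in knock-in medial cells (2.36 and 1.95 over other mural cells). Within the other mural cells of the knock-in library Dsp stood at 133 CPM in the muscarinic set and 13.5 CPM in the Sncg set. Sema3a, a repulsive guidance signal, had ratios of 2.27 and 2.04, and Ptprz1, a receptor phosphatase, 2.17 and 1.55. Kctd16, an auxiliary subunit of GABA-B receptors, had ratios of 2.94 and 2.08, the extracellular proteoglycan opticin (Optc) 2.01 and 1.57, the regulator of G protein signalling Rgs7 1.63 and 1.79, the coenzyme Q kinase gene Coq8a 2.47 and 1.62, and the surface proteins Emb 3.07 and 2.06 and Ly75 2.79 and 2.35. Nkain2 had ratios of 2.91 and 2.18, and of 4.64 and 3.09 with free RNA subtracted. Of the 15 genes highest on this side 14 have a promoter window, and 0 of these held a CArG box.

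These genes were not uniform among medial cells. In thinned cells a Wnt16 UMI was seen in 26.6% of wild-type and 18.8% of knock-in medial cells, with 0.0% and 0.171% in fibroblasts. A Casq1 UMI was seen in 30.2% and 28.2%, with 1.62% and 1.16% in fibroblasts. Kctd16 was seen in 52.9% and 49.1%, with 2.20% and 2.99% in fibroblasts, and Ptprz1 in 65.1% and 49.5%, with 0.541% and 0.428% in fibroblasts.

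**Figure D2:**
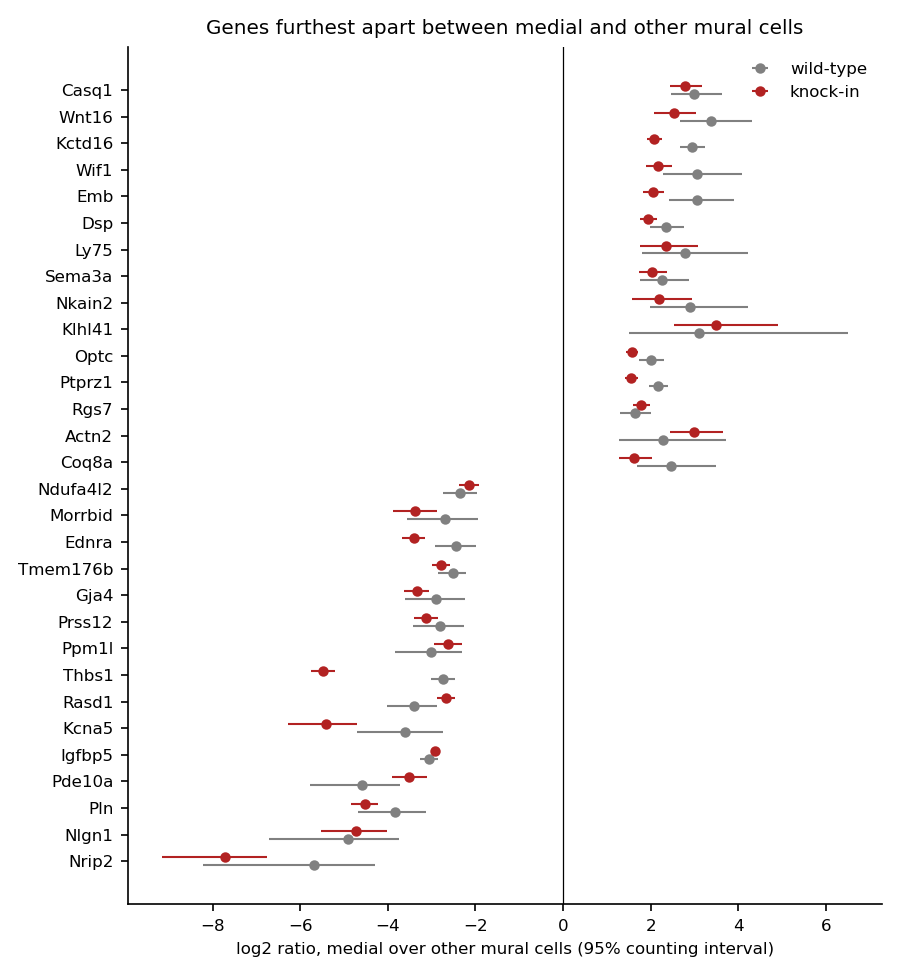
Log2 ratio of medial over other mural cells (horizontal axis) for the 15 highest and 15 lowest genes; grey points are the wild-type and red points the knock-in library, and bars are 95% counting intervals. The ranking set genes with opposite signs in the 2 libraries to 0, so every named gene lies on the same side by construction. Values run from Nrip2 at -5.69 and -7.73 to Wnt16 at 3.39 in the wild-type and Klhl41 at 3.49 in the knock-in library. Genes are ordered by the interval bound nearest 0, and Klhl41 has the widest interval on the right.

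The 15 lowest genes had higher levels in the other mural cells. Pln, phospholamban, the brake on the calcium pump of the sarcoplasmic reticulum, stood at 3.10 CPM in medial and 45.1 CPM in other mural wild-type cells (-3.83), and at 3.34 CPM and 77.3 CPM in the knock-in library (-4.53). Within the other mural cells it stood at 81.0 CPM and 110 CPM in the Sncg set, against 0.0 CPM and 0.943 CPM in the muscarinic set. Kcna5, a voltage-gated potassium channel, stood at 2.07 CPM and 26.1 CPM in wild-type medial and other mural cells and at 0.481 CPM and 21.1 CPM in those of MGP-KI. Gja4, a gap junction protein of arteries, had ratios of -2.89 and -3.34, and Ednra, the endothelin receptor of smooth muscle, -2.44 and -3.41. Igfbp5, an insulin-like growth factor (IGF) binding protein, had ratios of -3.06 and -2.93.

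The nuclear receptor partner Nrip2 had ratios of -5.69 and -7.73 on 3 and 7 medial UMIs, the synaptic adhesion gene Nlgn1 -4.92 and -4.72, and the phosphodiesterase Pde10a -4.60 and -3.51. Thbs1, thrombospondin 1, stood at 27.1 CPM in wild-type and 3.53 CPM in knock-in medial cells, with ratios to the other mural cells of -2.73 and -5.47. Between libraries its medial ratio was -2.94, but -0.65 in cells of 8000 to 20000 UMIs, where it had 9 wild-type and 70 knock-in UMIs. Rasd1 (-3.42 and -2.68), Ppm1l (-3.02 and -2.62), Prss12 (-2.82 and -3.14), Tmem176b (-2.52 and -2.78), Morrbid (-2.70 and -3.38) and Ndufa4l2 (-2.34 and -2.16) completed the 15 lowest. With doublets removed, Ndufa4l2 stood at -3.94 and -3.66 and Igfbp5 at -3.73 in the knock-in library.

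Between the libraries, 392 of 12662 genes (3.10%) were at least 2-fold higher in knock-in medial cells and 420 (3.32%) were 2-fold lower. Limited to genes with a mean of at least 10 CPM, a limit added after the data were seen, these counts were 78 and 112. In cells of 8000 to 20000 UMIs they were 527 and 210. Among the 15 highest and 15 lowest genes of this comparison, the highest and the lowest ratio belonged to clock genes. Dbp, a clock-controlled transcription factor, stood at 10.3 CPM and 240 CPM (log2 ratio 4.53, 4.17 to 4.93), and 3.96% of wild-type against 61.1% of knock-in thinned medial cells held a UMI. Arntl, the core activator BMAL1, stood at 27.9 CPM and 2.43 CPM (-3.52), and its partner Npas2 at -2.52. Of 18 clock genes, 11 were at least 1.5-fold higher and 4 lower. The same genes stood at 3.10 for Dbp and -4.36 for Arntl in other mural cells and at 3.87 and -3.71 in fibroblasts. The sources used here do not give the time of day at collection, and its part in the result was not tested.

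Among the 15 highest were further clock genes (Hlf 2.47, Nr1d2 2.19, Tef 2.14, Bhlhe41 2.26, Per3 2.20 and Nr1d1 1.96), the secreted factor gene Tafa1 (1.61 in female and 3.33 in male cells), the phosphatase gene Ppm1n (2.13), Cfap45 (2.37) and the chemokine receptor gene Cx3cr1 (1.86). Among the 15 lowest, Ccn4, a secreted protein induced by Wnt signals, stood at 23.4 CPM and 5.68 CPM (-2.05, and -2.71 with doublets removed), Adamts12, a matrix metalloprotease, at -1.82 and Wdr95 at -1.72. Hist2h2aa1 (2.61) and Wdr89 (1.99) among the highest, and Eif3j2 (-2.10) and Rnaset2b (-1.88) among the lowest, are uncertain, since near-identical copies of these genes may take part of the reads.

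**Figure D3:**
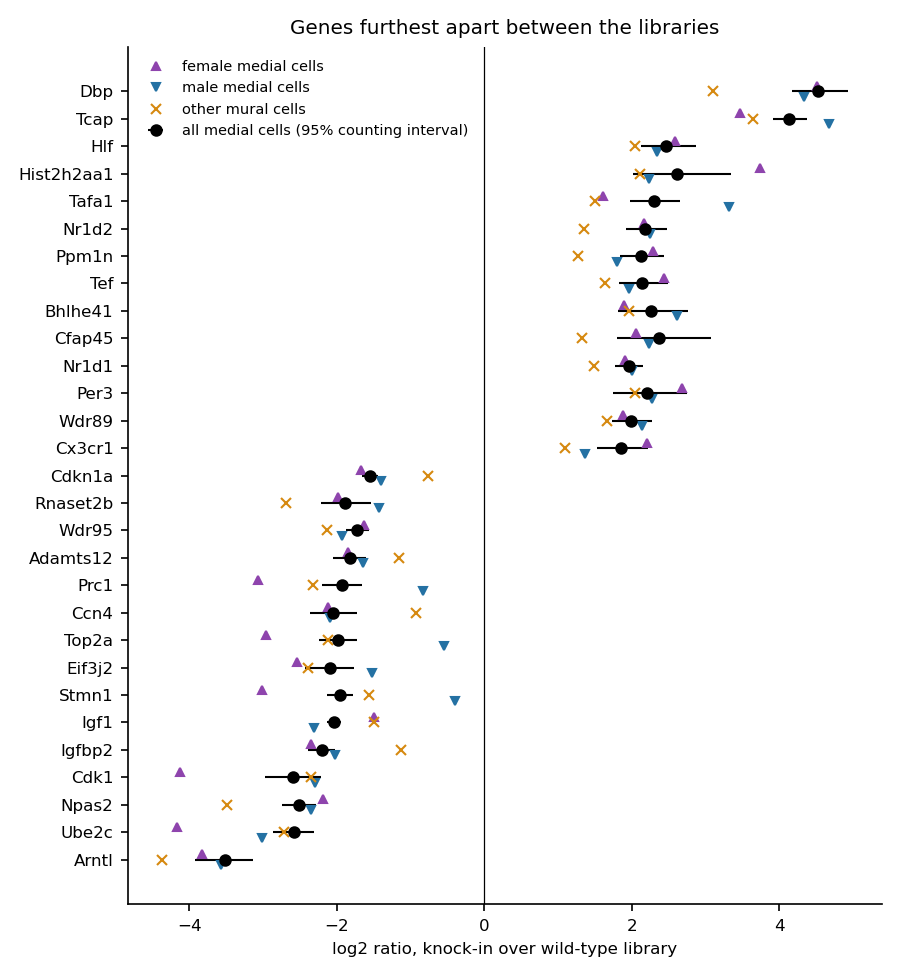
Log2 ratio of knock-in over wild-type (horizontal axis) for 29 of the 30 genes ranked highest or lowest in medial cells (black, with 95% counting interval), in female and male medial cells (triangles) and in other mural cells (crosses). Dbp stands at 4.53 and Arntl at -3.52; the cycle gene Top2a spreads from -2.96 in female to -0.54 in male cells.

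Of 20 measured elastic fibre genes, 7 lay below the 1.5-fold limit in knock-in medial cells, 12 between the limits and 1 above, and the median log2 ratio was -0.40, or -0.27 in cells of 8000 to 20000 UMIs. Eln, elastin, the stretchable core of the fibre, stood at 20434 CPM in wild-type and 8883 CPM in knock-in medial cells (-1.20, -1.21 to -1.19), and at -1.37 in female and -0.94 in male cells. Thinned to 5000 UMIs, wild-type medial cells held a median of 95.5 Eln UMIs with 10th and 90th percentiles of 45 and 168.9, and knock-in cells 36, with 13 and 85. Single cells of the libraries thus overlapped, while the wild-type median lay above the upper of the knock-in percentiles. Lox, the enzyme that cross-links elastin and collagen, stood at 528 CPM and 223 CPM (-1.24), and 84.9% and 59.5% of thinned cells held a UMI.

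The microfibril proteins Mfap2 (-0.94) and Mfap4 (-0.65) and the latent TGF-beta binding protein Ltbp2 (-0.80) were lower too, and Ltbp4, which links latent TGF-beta to the fibre, was higher (292 CPM and 466 CPM, 0.67). Fbln2, fibulin 2, stood at -1.52, but at -0.27 in cells of 8000 to 20000 UMIs, and Fbln1, fibulin 1, at -1.37, but at 0.70 in female cells and 0.33 in that depth range. Mfap4 had ratios of -0.49 (female) and -0.53 (male). Fibrillin 1 (Fbn1) stood at -0.33 and the cross-linking enzyme gene Loxl1 at -0.09. Eln and Lox were also lower outside the medial set: Eln stood at -1.16 and Lox at -1.45 in other mural cells, and at -0.91 and -0.83 in fibroblasts.

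**Figure D4:**
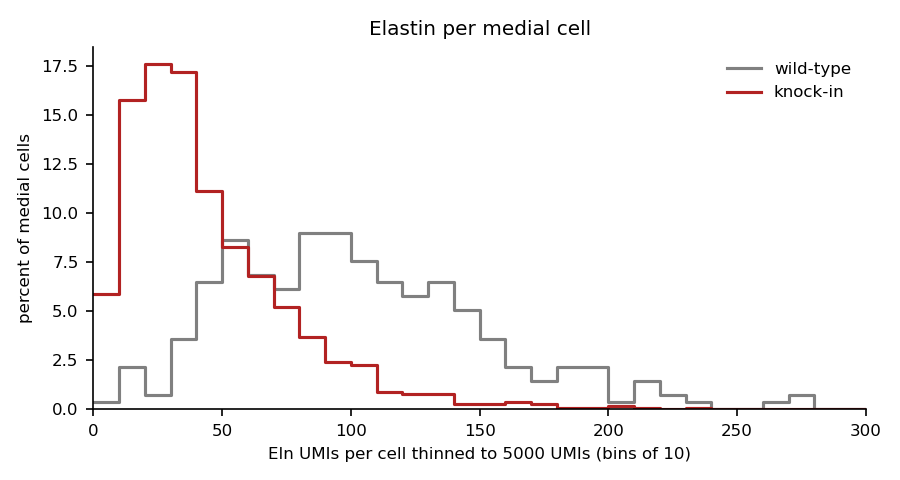
Elastin UMIs per medial cell after thinning to 5000 UMIs (horizontal axis, bins of 10) against the percent of medial cells, for 278 wild-type (grey) and 2554 knock-in cells (red). The medians are 95.5 and 36, and the distributions overlap.

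Of the fibrillar collagen and related collagen genes, 5 of 13 measured lay below the 1.5-fold limit in knock-in medial cells and 0 above it, and the median was -0.50, or -0.18 in cells of 8000 to 20000 UMIs. Col1a1 stood at 3392 CPM and 1953 CPM (-0.80), Col1a2 at -0.61 and Col3a1 at -0.33. In the range of 8000 to 20000 UMIs Col1a1 stood at -0.56, and Col1a2 at -0.39 in female and -0.45 in male cells, so these calls end there. The other 3 were Col8a1 (-2.34), Col12a1 (-1.06) and Col14a1 (-0.65), which stood at 0.41, 0.12 and -0.43 in that range, so that none of the 5 calls held in it. In other mural cells Col1a1, Col1a2 and Col3a1 stood at -1.65, -1.39 and -1.04. Fibroblast markers in medial cells summed to 1733 CPM and 1542 CPM, and their part in the result was not tested. Among basement membrane genes, which form the sheath around each muscle cell, 1 of 17 was at least 1.5-fold higher and 3 lower. Lamc3, a laminin chain, stood at 6.90 CPM and 20.3 CPM (1.54) and the linker nidogen 2 (Nid2) at -1.01. Sparc, a collagen-binding protein, stood at 14080 CPM and 9977 CPM (-0.50).

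Of 21 attachment genes, 1 was at least 1.5-fold higher and 3 lower, with a median of 0.05. Over all 12662 measured genes, 8.09% were that much higher and 9.61% lower. Itga8, an integrin chain of smooth muscle, stood at 1677 CPM and 1857 CPM (0.15) and Itgb1 at 0.09. Itga5, the fibronectin receptor chain, stood at 73.6 CPM and 129 CPM (0.81), and Cdh11, a cadherin of mesenchymal cells, at 48.4 CPM and 16.8 CPM (-1.53). Of the small proteoglycans, Prelp stood at 163 CPM and 301 CPM (0.89) and Ogn, osteoglycin, at 0.47, while biglycan (Bgn) stood at 0.10.

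Of 13 measured receptors for vasoactive signals, 6 lay below the 1.5-fold limit and 0 above, and the median was -0.58, against 0.11 in other mural cells; this difference between the cell sets was not tested. Receptor genes gave few UMIs: the most in this list were 303 and 1603, of Htr1b. Agtr1a, the angiotensin receptor, stood at 5.86 CPM and 1.90 CPM (-1.64, -2.25 to -0.99), and at -0.89 in cells of 8000 to 20000 UMIs. Adra1a, an alpha-1 adrenergic receptor, stood at -1.42, and at 1.03 in other mural cells. Ednra stood at 10.0 CPM and 5.54 CPM (-0.86, -1.28 to -0.40), and at 0.11 in other mural cells. The receptor genes Htr1b, for serotonin, and Tbxa2r, for thromboxane, stood at -0.21 and -0.15, and Adra1b, Adra1d, Ednrb and F2r at 0.25, 0.42, 0.01 and -0.02.

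Of 16 calcium handling genes, 1 was at least 1.5-fold higher and 0 lower, with a median of -0.07. Atp2a2, the calcium pump of the sarcoplasmic reticulum, stood at 378 CPM and 501 CPM (0.40) and the L-type channel gene Cacna1c at 259 CPM and 226 CPM (-0.20). Of 11 potassium channel genes, 1 was at least 1.5-fold higher and 2 lower. Kcnma1, the large-conductance channel that relaxes the muscle, stood at 251 CPM and 256 CPM (0.03, -0.05 to 0.11). In the nitric oxide pathway, 1 of 11 genes was lower by 1.5-fold (Gucy1a2, a guanylate cyclase subunit, -0.68, and -0.37 in cells of 8000 to 20000 UMIs), and Prkg1, the kinase it drives, stood at -0.27.

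Smooth muscle transcription factors differed little. Of 19, 0 were at least 1.5-fold higher and 1 was lower, Foxs1, a forkhead factor of mural cells, at 39.8 CPM and 12.9 CPM (-1.63). Myocd stood at 0.24, Mef2c at 0.39 and Klf4, a repressor of contractile genes, at -0.55, or -0.17 in cells of 8000 to 20000 UMIs.

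**Figure D5:**
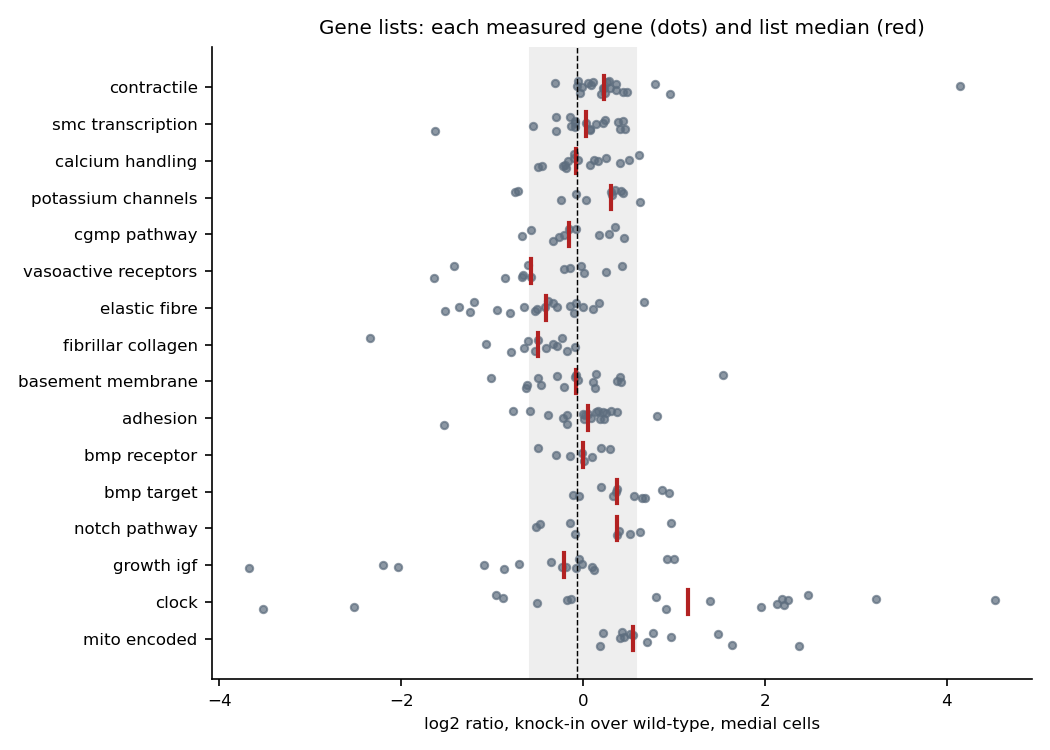
Log2 ratio of knock-in over wild-type in medial cells (horizontal axis) for each measured gene of 16 lists (dots) and the list median (red bar); the dashed line is the median of all genes and the grey band marks less than 1.5-fold. Elastic fibre genes have their median at -0.40, vasoactive receptors at -0.58 and BMP targets at 0.37, and clock genes spread from -3.52 to 4.53.

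Along the BMP pathway, 4 of 11 measured target genes were at least 1.5-fold higher, and ligands and antagonists lay on both sides. Mgp itself, the gene that carries the mutation, stood at 5545 CPM and 6550 CPM (0.24, 0.22 to 0.26); UMIs do not tell the mutated transcript from the normal one. In other mural cells it was higher than in medial cells in both libraries, at 8751 CPM and 9891 CPM. Of 5 measured ligands 2 were at least 1.5-fold higher and 3 lower. Bmp2 stood at 12.2 CPM and 19.8 CPM (0.69), and at 0.24 in male cells. Bmp6 stood at 24.0 CPM and 1.95 CPM (-3.61), but at 1.55 among members with a contractile level of at least 100 per 10000, which leaves out 19 wild-type and 34 knock-in cells. Endothelial markers, at 107 CPM and 55.3 CPM, moved with it, and their part in the result was not tested.

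Of 8 BMP receptor genes 0 were 1.5-fold apart, with Bmpr1a at 0.19 and Bmpr2 at 0.30. Of 11 antagonists outside the rule, 1 was at least 1.5-fold higher and 3 lower. Follistatin (Fst), which traps activins and BMPs, stood at 30.7 CPM and 10.0 CPM (-1.62), at -0.76 in female and -2.12 in male cells. Dand5 stood at 5.69 CPM and 11.9 CPM (1.05), and Twsg1, which modulates BMP binding by chordin, at 0.55. Of the 11 target genes 0 were 1.5-fold lower, and the median was 0.37, and 0.41 in cells of 8000 to 20000 UMIs and 0.42 in other mural cells. Atoh8, a BMP-induced transcription factor, stood at 18.3 CPM and 35.4 CPM (0.95, 0.67 to 1.26), Id4 at 0.68 (0.40 in cells of 8000 to 20000 UMIs) and Smad9, a SMAD activated by BMP receptors, at 0.87 on 32 wild-type UMIs (0.57 in female cells). Smad7, the inhibitory SMAD, stood at 105 CPM and 164 CPM (0.65), at 0.73 in female and 0.20 in male cells. Of the 4, Atoh8 alone stayed past 1.5-fold in female, in male and in depth-limited cells. Id1 stood at 0.36 and Id3, which like Id1 encodes an inhibitor of differentiation, at -0.05, and Bambi, a decoy receptor, at -0.11.

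Of 9 Notch genes, 2 were at least 1.5-fold higher and 0 lower, with a median of 0.37: the target Hes1 at 57.7 CPM and 113 CPM (0.96) and the effector Rbpj at 0.62, or 0.47 in male cells. Of 16 TGF-beta genes, 1 was higher, the coreceptor gene Tgfbr3 (0.74, and 0.57 in female cells), and Ccn2, a matricellular target, stood at -0.43. Among Wnt modulators, Wif1 stood at 49.5 CPM and 85.5 CPM (0.79, and 0.47 in cells of 8000 to 20000 UMIs), while Sfrp1 stood at 67.9 CPM and 6.93 CPM (-3.29), with -0.72 in cells of 8000 to 20000 UMIs, and Frzb at -1.14.

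Genes of cartilage, bone and mineral control gave no common direction. Of 13 cartilage and bone genes, 0 were at least 1.5-fold higher and 3 lower. Scx, a transcription factor of tendon, stood at 56.0 CPM and 21.9 CPM (-1.35) and Acan, aggrecan, at 0.06 (-0.18 to 0.32). Of 7 mineral control genes 0 were higher and 1 lower, Tnfrsf11b, the decoy receptor osteoprotegerin, at 39.8 CPM and 13.7 CPM (-1.54, and -0.58 among members with a contractile level of at least 100 per 10000). Enpp1, which makes pyrophosphate, stood at 0.53 and Ank, which exports it, at 0.44. Of 9 vitamin K genes, among them the carboxylase Ggcx that modifies MGP (0.19, -0.08 to 0.49), 0 were 1.5-fold apart in either direction.

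IGF genes differed in both directions. Of 16 measured growth genes, 2 were at least 1.5-fold higher and 6 lower. Igf1, the growth factor, stood at 235 CPM and 57.5 CPM (-2.04, -2.13 to -1.93), at -3.19 with doublets removed, and at -1.49 in other mural cells. An Igf1 UMI was seen in 19.1% of wild-type and 8.14% of knock-in thinned medial cells, against 88% and 79.9% of fibroblasts. Igfbp2 stood at 77.6 CPM and 16.8 CPM (-2.21), and at -0.86 in cells of 8000 to 20000 UMIs. Igfbp5 stood at 48.8 CPM and 92.7 CPM (0.92) and Igfbp6 at 1.00, or 0.23 with doublets removed.

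Cell-cycle genes stood lower in the knock-in library, and a few cells held most of their UMIs. Of 17, 11 were at least 1.5-fold lower in knock-in medial cells and 0 higher, with a median of -1.14. Members with at least 5 UMIs of 8 cycle genes numbered 5 of 282 wild-type cells (1.77%, 0.578 to 4.09) and 14 of 2597 knock-in cells (0.539%, 0.295 to 0.903), and they held 96.5% and 81.1% of those genes' UMIs. Without them, an alternative added after the data were seen, the list median was 0.21, and the mitotic kinase gene Cdk1 stood at -1.45 in place of -2.60, Ube2c at -1.41 in place of -2.58 and Stmn1 at -0.74 in place of -1.96. Top2a, which untangles chromosomes, stood at -1.99 with and 0.35 without them, Mki67 at -2.22 and 1.14 and Prc1 at -1.93 and 0.59. Cdkn1a, the cycle inhibitor p21, stood at 177 CPM and 60.6 CPM (-1.55), with -1.67 in female and -1.40 in male cells.

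Of 13 mitochondrially encoded genes, 6 were at least 1.5-fold higher in the knock-in library and 0 lower, with a median of 0.55. mt-Atp8 stood at 78.1 CPM and 406 CPM (2.38) and mt-Nd3 at 1.64, while mt-Cytb stood at 0.22 and mt-Nd4 at 0.19. The median mitochondrial share of a cell, 3.23% and 4.58%, is summed over mitochondrial genes, these among them, and is no separate measure. The cause of the difference was not tested. Of 19 early response genes 1 was at least 1.5-fold higher and 1 lower: Nr4a1 at 0.68 (0.47 in male cells) and Socs3 at -0.83.

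Medial cells also varied among themselves, and genes were ranked by the lower of their values in the 2 libraries. In 278 wild-type and 2554 knock-in cells thinned to 5000 UMIs, the median variance over mean was 1.07 and 1.06 across 5350 genes, where counting alone gives a value near 1. Mgp reached 29.65 and 44.6 in wild-type and MGP-KI cells, Eln 26.3 and 22.5, Col1a1 24.1 and 17.8 and Col1a2 20.7 and 16.1. The nuclear RNA Malat1, first in this ranking, had 49.0 and 44.9, and the histone gene Hist1h2ap 14.3 and 62.5, the highest of the named genes in the knock-in library. Fos, an early response gene, reached 10.25 and 12.3, the metallothionein Mt1 6.975 and 7.23, dystrophin (Dmd) 8.47 and 6.51, and the small heat shock protein gene Hspb1 6.46 and 7.07. Col3a1, Sparc, Cst3, Apoe and Tmsb4x completed the 15 genes, and Hist1h2ap UMIs were seen in 2.52% and 5.21% of cells.

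Some of these genes varied together. Across thinned cells, Col1a1 and Col1a2 had a Spearman rho of 0.64 (wild-type) and 0.50 (MGP-KI), Col1a2 and Sparc 0.52 and 0.53, and Eln and Sparc 0.41 and 0.52. Malat1 and Dmd, a nuclear RNA and a very long gene, had a rho of 0.62 and 0.59. Mgp, although among the most variable, had a rho with Eln of -0.01 and -0.21, and with Cst3, a secreted protease inhibitor, of 0.33 and 0.31. Cells of 1 library share its preparation, and these values describe cells and not replicates.

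Posterior Hox genes mark position along the body axis, and after thinning a like share of medial cells in both libraries held a UMI of them. A posterior Hox UMI was then seen in 99 of 278 wild-type cells (35.6%, 29.98 to 41.5) and 895 of 2554 knock-in cells (35.0%, 33.2 to 36.9). Before thinning the shares were 65.6% (59.74 to 71.13) and 57.7% (55.75 to 59.59). Many cells counted as without such a UMI thus held one at full depth. Of 8766 genes, 10 (0.114%) were at least 2-fold higher and 3 (0.0342%) 2-fold lower in both libraries in cells with such a UMI. The posterior Hox genes that made the split were not left out of these counts, and they are higher in such cells by construction. Actg2, smooth muscle gamma actin, had log2 ratios of cells with over cells without such a UMI of -0.56 in the wild-type library and -0.47 in MGP-KI, and Aspn, asporin, -0.61 and -0.56. Higher in cells with a posterior Hox UMI were Tmeff2, a transmembrane protein with follistatin domains (1.60 and 0.93), Xkr4 (1.24 and 0.81) and the collagen chain Col4a4 (0.89 and 0.68). The endothelial genes Cd93 (2.06 and 2.11) and Ptprb (1.34 and 1.85) and the cycle genes Cenpf (1.5 and 1.81) and Ube2c (1.82 and 1.09) were higher as well. Positions along the aorta were not labelled, so this split rests on the UMIs alone.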

How the data were processed

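UMI counts per gene and barcode were deposited by the authors as unfiltered matrices, raw and not normalized, and the file headers name Cell Ranger 7.1.0; the sources used here name neither build nor annotation. The files held 1307634 wild-type and 1421297 knock-in barcodes over 32285 genes, with 79626104 and 85831737 UMIs. Cells were barcodes of 1000 UMIs and 500 genes or more with mitochondrial UMIs of up to 10%: 3697 and 6419 cells with medians of 20480 and 11820 UMIs; doublets were kept, and removing scrublet's top scores (109 and 330 cells, scanpy 1.11.5; its own threshold called 4 and 120) was an alternative.

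Counts of the member cells were summed per library. Log2 ratios of CPM have 0.5 added to each sum and exact conditional binomial 95% intervals, and shares have Clopper-Pearson intervals. Free RNA was read from barcodes of 10 to 100 UMIs. Only the ratio and its interval were tested on simulated counts. Those counts were drawn with counting error alone, so the test does not cover variation among cells or mice. Python 3.11.15, numpy 2.4.6, scipy 1.17.1, pandas 2.3.3 and matplotlib 3.10.9 were used.

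The members and the 35 gene lists were chosen with earlier results of these data known. Genes were named by rule: the 15 highest and 15 lowest between libraries (at least 20 CPM, same direction in both sexes, at least 1/5 of the level of the highest cell class, ranked by the interval bound nearest 0), the same between medial and other mural cells, the 15 most variable, and up to 4 per list, by largest ratio or by UMIs. Genes of the selection rule and mitochondrial, ribosomal, sex-linked and unnamed genes were left out of the rankings. Myl6, Vcl, Thbs1 between libraries, Id4, Twsg1, Bgn and the genes named by posterior Hox UMIs were among those chosen after their values were seen. Some genes that met these rules are not reported here.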

Additional observations from a re-analysis of the deposited data

How the results depend on the processing

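The alternatives gave 2439 values of list medians and of a part of the named genes. Of these, 1847 stayed within the tolerance set for them (for a gene between libraries, its counting interval), 577 moved further and 15 called values, given below, changed sign. Fbln1, Col8a1 and Col12a1 were not among the genes followed, and their direction turned too. Fbln1 went from -1.37 to 0.70 in female cells. In cells of 8000 to 20000 UMIs Col8a1 went from -2.34 to 0.41 and Col12a1 from -1.06 to 0.12. Within female and male cells, the share of medial cells was 9.05% and 6.74% in the wild-type and 50.6% and 35.3% in the knock-in library; with at most 5% mitochondrial UMIs the knock-in share was 32.1%. Genes at least 2-fold higher in knock-in medial cells numbered 392, and 255 in male cells, 1005 with a minimum of 10 UMIs and 78 with a mean of at least 10 CPM, added after the data were seen. Genes 2-fold lower numbered 420, and 229 in male cells, 210 in cells of 8000 to 20000 UMIs, 1020 with 10 UMIs and 112 with a mean of at least 10 CPM. With a minimum of 20 UMIs per library, 402 genes in place of 241 were lower in medial than in other mural cells. The direction turned for the BMP ligand median (-0.60; 0.33 with doublets removed, 0.65 at a contractile level of 100 per 10000, 0.27 in female, 0.24 in male and 0.88 in cells of 8000 to 20000 UMIs), for Bmp6 (1.55 at that contractile level, 1.35 in that depth range), and for the cell-cycle median (0.16 in that depth range, 0.21 without cycling members), Prc1 (0.58, 0.59), Mki67 (1.10, 1.14) and Top2a (1.02, 0.35); the cause was not tested. Wild-type members held 5801256 UMIs against 35361308, so the wild-type sum limits genes of few UMIs. No paired analysis was possible because each genotype has 1 library.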

Other observations

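Genes of modulated smooth muscle, the state in which these cells lose contractile genes and make matrix, had a median log2 ratio of -0.55 between libraries, with 1 of 15 measured at least 1.5-fold higher and 7 lower, and 0.16 in cells of 8000 to 20000 UMIs. Metabolic lists stood near 0: glycolysis at -0.02 and nuclear genes of oxidative phosphorylation at 0.01, and heat shock genes stood at 0.12. Interferon genes had 2 of 13 higher and 2 lower, with a median of -0.10. Of 10 anterior Hox genes 0 were higher and 2 lower (median -0.004), of 7 posterior Hox genes 0 and 2 (-0.43), and of 7 genes of the aortic arch 1 and 1 (-0.40, but 0.48 in female cells).

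Some ratios differed between medial and other mural cells or between sexes. Lamc3 stood at 1.54 in medial cells and at 0.19 in other mural cells, and Htr1b at -0.21 and 1.17. Aspn stood at -0.94 in medial cells, at -0.19 in female and -1.32 in male cells. Kcnk3, a background potassium channel gene, stood at -0.72 on 38 and 142 UMIs in medial cells and at 0.43 in other mural cells. None of these differences between cell sets or sexes was tested.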
